A study of Rattus norvegicus with 18 samples.

Results

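The proteasome genes were followed in primary rat astrocytes and microglia that met fibrils of amyloid-β. They were taken by symbol, as every gene whose name starts with Psm, then one of the letters a to g, then a digit, which gave 49 of the 17930 symbols in the tables. Of these, 46 passed the filter on low counts in astrocytes, 46 in microglia and 47 when both cell types were fitted together. The genes set against the others are Psmb8, Psmb9 and Psmb10, which encode the immunosubunits, and Psme1 and Psme2, which encode the PA28 activator. The symbol rule also took Psmc3ip, which matches by its letters alone and encodes a cofactor of meiotic recombination, not a proteasome subunit.

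The proteasome cuts proteins tagged with ubiquitin into peptides inside a barrel of α and β rings, whose cutting sites lie in the β subunits encoded by Psmb5, Psmb6 and Psmb7. The regulatory particle of ATPase (Psmc) and non-ATPase (Psmd) subunits caps the barrel, unfolds the substrate and feeds it in. In cells exposed to interferon, newly made barrels take up Psmb8 in place of Psmb5, Psmb9 in place of Psmb6 and Psmb10 in place of Psmb7, and the PA28 cap of Psme1 and Psme2 opens the barrel independently of ubiquitin. The immunoproteasome formed in this way is known for supplying peptides to MHC class I and is scarce in resting brain tissue.

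The cells were primary cultures from the cortex of neonatal Sprague–Dawley rats with no genetic change. For each cell type there were 3 groups of 3 libraries: untreated control cells, cells given Aβ42 fibrils and cells given Aβ40 fibrils, all collected after 24 h. The fibrils were grown from synthetic peptide on seeds of earlier fibrils and were used at a single concentration, and the controls received no fibrils. Nothing in the labels says whether the 3 replicates came from separate litters or cultures, so p-values measure only the spread between these libraries, which may be technical. As a model, the microglia were taken from mixed glial cultures of neonatal tissue, and a single time point was seen.

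To show where the genes set against the others differ in sequence, the promoters of the 5 interferon-inducible genes are printed from RefSeq on the rat build GRCr8, each from 250 bases before to 50 bases after the start site, 5′ to 3′ on the strand of the gene. The files themselves were made on the older build rn5, so these positions were not joined to any count. Capitals mark matches to 3 short motifs searched on both strands: GAAANNGAA (the core of an interferon response element), GGANTTTCC (a form of the NF-κB site) and TGACNNNGC (the core of an antioxidant response element).
Psmb8, chr20:4656982-4657281, minus strand: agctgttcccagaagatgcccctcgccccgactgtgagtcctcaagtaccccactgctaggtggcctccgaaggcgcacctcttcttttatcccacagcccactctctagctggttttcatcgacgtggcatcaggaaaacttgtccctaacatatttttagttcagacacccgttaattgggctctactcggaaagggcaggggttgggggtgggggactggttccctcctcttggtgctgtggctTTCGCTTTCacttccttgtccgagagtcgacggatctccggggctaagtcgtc
Psmb9, chr20:4668750-4669049, plus strand: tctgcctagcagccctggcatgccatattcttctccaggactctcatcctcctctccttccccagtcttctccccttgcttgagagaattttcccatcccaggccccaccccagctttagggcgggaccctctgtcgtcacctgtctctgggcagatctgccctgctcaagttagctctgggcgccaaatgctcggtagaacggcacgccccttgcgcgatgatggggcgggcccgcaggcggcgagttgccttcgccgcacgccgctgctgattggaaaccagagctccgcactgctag
Psmb10, chr19:50743243-50743542, minus strand: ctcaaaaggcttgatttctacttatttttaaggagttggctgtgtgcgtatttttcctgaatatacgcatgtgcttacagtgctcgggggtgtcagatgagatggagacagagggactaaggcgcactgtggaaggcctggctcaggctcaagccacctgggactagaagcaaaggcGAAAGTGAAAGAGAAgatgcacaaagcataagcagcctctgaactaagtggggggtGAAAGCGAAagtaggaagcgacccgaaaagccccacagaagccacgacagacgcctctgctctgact
Psme1, chr15:33038721-33039020, plus strand: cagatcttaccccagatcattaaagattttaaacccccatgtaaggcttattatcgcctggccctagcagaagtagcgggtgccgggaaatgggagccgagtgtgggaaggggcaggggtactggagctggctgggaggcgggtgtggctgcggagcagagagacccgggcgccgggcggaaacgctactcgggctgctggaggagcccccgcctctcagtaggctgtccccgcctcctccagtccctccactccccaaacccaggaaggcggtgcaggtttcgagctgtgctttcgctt
Psme2, chr15:33052702-33053001, minus strand: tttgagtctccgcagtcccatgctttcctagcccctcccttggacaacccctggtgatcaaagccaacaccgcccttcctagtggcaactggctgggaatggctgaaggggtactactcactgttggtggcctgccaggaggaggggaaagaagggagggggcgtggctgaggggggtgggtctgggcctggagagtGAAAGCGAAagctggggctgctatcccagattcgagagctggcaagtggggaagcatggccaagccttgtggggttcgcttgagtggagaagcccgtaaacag
Psmb8 and Psmb9 lie close together in the MHC region of chromosome 20, as do Psme1 and Psme2 on chromosome 15. The interferon motif is in the windows of Psmb8, Psmb10 and Psme2, with 3 matches in Psmb10 of which the first pair overlaps, and in 9.71% of the 33469 promoters of this length. Of the 43 members with such a window, 9 hold it, the other 6 being Psma4, Psmb2, Psmb3, Psmd7, Psmd11 and Psmg4. In the windows of Psmb9 and Psme1 none of the 3 motifs was found, which says only that these letters are not there.
The constitutive partners of Psmb8 and Psmb10 are shown for contrast.
Psmb5, chr15:32047330-32047629, minus strand: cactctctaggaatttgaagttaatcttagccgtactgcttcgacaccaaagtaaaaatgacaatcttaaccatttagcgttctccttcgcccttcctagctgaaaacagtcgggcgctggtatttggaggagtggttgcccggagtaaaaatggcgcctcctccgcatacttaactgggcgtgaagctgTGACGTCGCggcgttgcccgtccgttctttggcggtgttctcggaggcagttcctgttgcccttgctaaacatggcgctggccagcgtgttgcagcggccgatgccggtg
Psmb7, chr3:42827421-42827720, minus strand: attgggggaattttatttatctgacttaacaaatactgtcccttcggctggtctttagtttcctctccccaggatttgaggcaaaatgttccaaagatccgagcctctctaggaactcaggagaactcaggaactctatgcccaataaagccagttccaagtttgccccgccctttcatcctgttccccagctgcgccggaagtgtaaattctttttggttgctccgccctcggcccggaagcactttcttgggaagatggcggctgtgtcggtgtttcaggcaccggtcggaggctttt
Psmb5 holds the antioxidant motif, which 8 of the 43 members and 12.1% of all promoters hold, and Psmb7 holds none of the 3. The NF-κB form is in 2 members, Psmc4 and Psmd9, and in 1.28% of all promoters. A match of this kind is a description of the sequence and not a site that was measured.

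Depth and identity of the libraries were looked at before the results. Reads counted on genes came to 3674043 to 19013919 per astrocyte library and 2271834 to 22274367 per microglial library, so that 3 counts, taken as the detection limit, stand for 0.16 to 0.835 CPM (the usual counts-per-library unit, scaled by TMM to a common library size) in astrocytes and 0.130 to 1.38 CPM in microglia. The summed level of 8 astrocyte markers was 5583 to 10500 CPM in astrocyte libraries and 219 to 268 CPM in microglial ones. For 11 microglial markers it was 3173 to 10230 CPM in microglia and 40.5 to 403 CPM in astrocytes. In both cultures the 7 oligodendrocyte lineage markers summed to 1249 to 2787 CPM and the 5 neuronal markers to 222 to 494 CPM. Fibroblast markers reached 189 CPM at most and endothelial ones 173 CPM, and the 4 markers of T and NK cells, Ifng among them, were at 3 counts or fewer in every library. In bulk RNA of this kind fewer cells of a type and less RNA per cell cannot be told apart.

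A pair of libraries stood apart from the others of their group. Astrocyte control replicate 2 differed from control replicates 1 and 3 by a chi-square over its degrees of freedom of 28.3 and 44.3, against 10.7 between those libraries, and had the highest share of reads off genes, 34.2%. In microglia, Aβ42 replicate 1 differed from Aβ42 replicates 2 and 3 by 22.9 and 22.4, against 7.66 between those, and held 2613723 counts against 22274367 and 17687416. No pair of replicates agreed within sampling noise (the lowest value was 1.76). For 38 of the 46 proteasome genes tested in microglia, Aβ42 replicate 1 lay nearer to the mean of the Aβ40 libraries than to that of Aβ42 replicates 2 and 3. Since the Aβ40 libraries are also shallow, at 2271834 to 4425805 counts, Aβ42 against Aβ40 and depth cannot be told apart in microglia, and results that rest on either library are given with and without it.

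Counts of a few members cannot be read as their expression. Psmb6, a constitutive catalytic subunit that every barrel without Psmb9 needs, was listed at 0 to 2 counts in all 9 astrocyte libraries and at 298 to 3746 counts in the microglial ones. The astrocyte tables hold a further row, LOC100360846, which the microglial tables lack and which RefSeq names Psmb6l1, a near copy of Psmb6, with 62 to 180 counts. How the reads of the 2 genes were divided was not tested, and no fold between the cell types is given for Psmb6. The testis-type α subunit Psma8 was at 0 counts in every library, and Psma3l was at 0 in all astrocyte libraries and at 2 counts at most in microglia. Psmb11, the catalytic subunit of the thymus, was at 1.56 to 3.66 CPM in astrocytes and at 2 counts or fewer in microglia. RefSeq names copies or pseudogenes of 19 members, among them Psme1, Psme2, Psmb3, Psmb7 and Psma6, so reads of these may be shared.

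In astrocytes the immunosubunits and the PA28 genes were higher with both fibrils, and the constitutive catalytic subunits tested did not pass. Psmb8, the immunosubunit that replaces Psmb5, was at 9.18, 3.59 and 12.9 CPM in control replicates 1, 2 and 3, which rests on 33, 15 and 184 counts. It was at 82.7, 83.9 and 69.0 CPM with Aβ42 fibrils and at 72.0, 89.8 and 89.9 CPM with Aβ40 fibrils. The lowest fibril-treated library lay far above the highest control one. The log2 fold change was 3.09 ± 0.31 (SE, n = 3) with Aβ42 (edgeR quasi-likelihood test, adjusted p = 1.88e-05) and 3.19 ± 0.31 with Aβ40 (adjusted p = 1.64e-05), or 8.54-fold and 9.12-fold.

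Psmb9, which replaces Psmb6, followed the same pattern. Its control libraries were at 28.9, 16.03 and 24.3 CPM, the Aβ42 libraries at 200.2, 202.5 and 149.7 CPM and the Aβ40 libraries at 173.7, 197.0 and 217.6 CPM. Neither fibril group overlapped with control, and the edgeR log2 fold change was 2.99 ± 0.21 with Aβ42 (adjusted p = 1.37e-06) and 3.08 ± 0.22 with Aβ40 (adjusted p = 1.27e-06). Psmb10, which replaces Psmb7, was at 36.7, 16.3 and 39.4 CPM in control cells, at 202, 203.2 and 174.9 CPM with Aβ42 and at 192.2, 188.4 and 212.3 CPM with Aβ40. It too was higher in every fibril-treated library than in any control, by 6.19-fold with Aβ42 (edgeR adjusted p = 1.55e-05) and 6.32-fold with Aβ40 (adjusted p = 1.56e-05).

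The genes of the PA28 cap rose too. Psme1 was at 215.6, 210.1 and 167.4 CPM in control astrocytes, at 393.7, 426.4 and 457.6 CPM with Aβ42 and at 437.0, 363.1 and 435.2 CPM with Aβ40. Psme2 was at 96.2, 53.4 and 75.4 CPM in control cells, at 244.6, 253.8 and 237.5 CPM with Aβ42 and at 231.1, 241.1 and 252.0 CPM with Aβ40. For both genes the control libraries lay below all fibril-treated ones. The log2 fold change of Psme1 was 1.11 ± 0.14 with Aβ42 and 1.06 ± 0.14 with Aβ40, and that of Psme2 was 1.71 ± 0.18 and 1.69 ± 0.18 (edgeR adjusted p from 2.65e-05 to 0.000127).

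The constitutive catalytic subunits did not pass the test in astrocytes. Psmb5 was at 140.5, 87.3 and 140.8 CPM in control replicates 1, 2 and 3, at 137.0, 137.9 and 129.4 CPM with Aβ42 and at 124.4, 133.6 and 147.9 CPM with Aβ40, so that control replicate 2 alone lay below the fibril-treated libraries. Its log2 fold change was 0.13 (95% interval −0.21 to 0.47) with Aβ42 and 0.14 (−0.20 to 0.48) with Aβ40. Psmb7 was at 195.0, 148.6 and 138.1 CPM in control cells, at 139.0, 147.6 and 143.3 CPM with Aβ42 and at 131.4, 134.0 and 138.5 CPM with Aβ40. Both fibril groups overlapped with control, and the log2 values were −0.16 (−0.43 to 0.11) with Aβ42 and −0.25 (−0.52 to 0.02) with Aβ40. These intervals leave out any rise of Psmb5 or Psmb7 as large as that of Psmb8, Psmb9 or Psmb10.

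**Figure D1:**
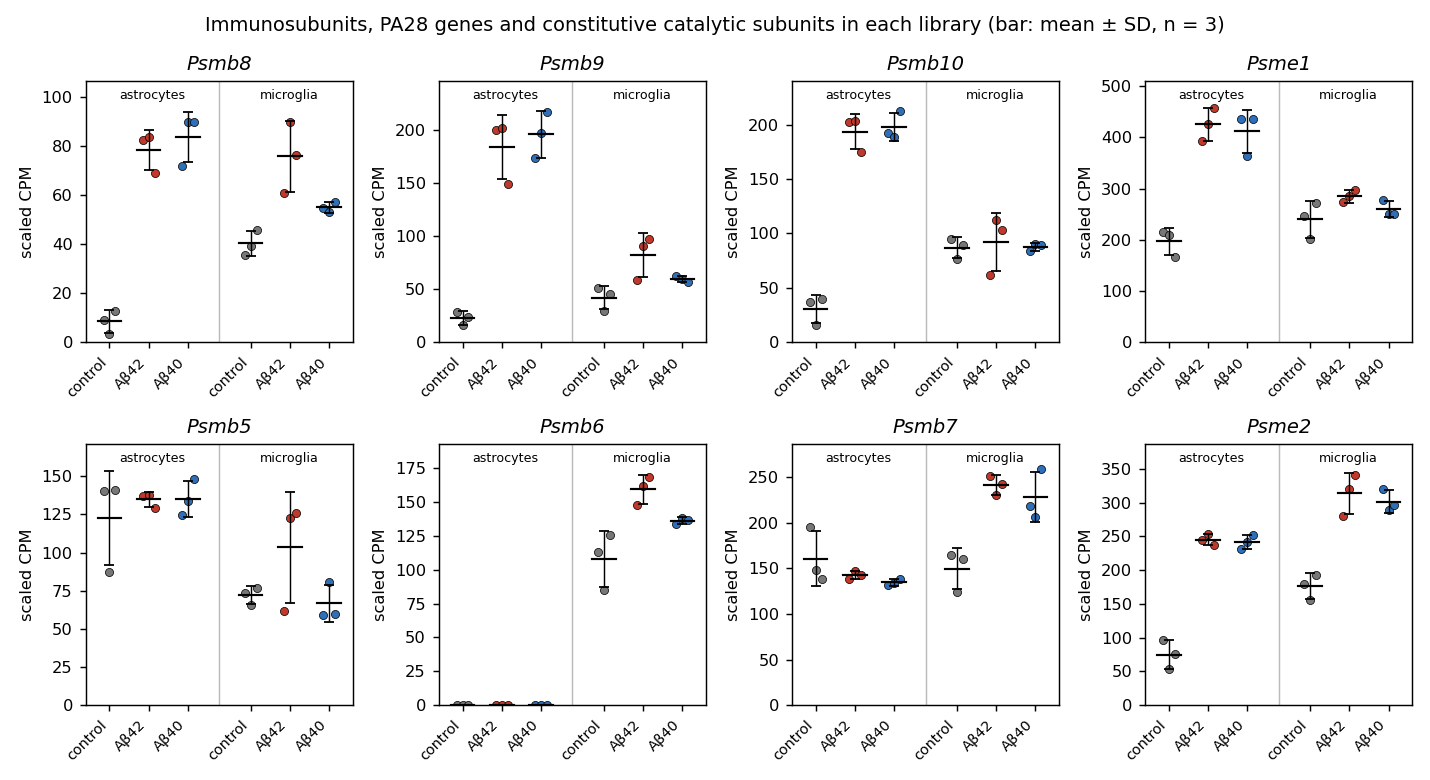
Scaled counts (CPM, vertical axes, each from 0) of the 5 interferon-inducible genes and the 3 constitutive catalytic subunits in all 18 libraries. Each point is a library, with the mean and SD of the 3 libraries of its group. Control astrocytes sit at 3.59 to 12.9 CPM for Psmb8 and fibril-treated ones at 69.0 to 89.9 CPM, while Psmb6 is near 0 in all astrocyte libraries.

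Over all roles, 12 of the 46 tested members were higher in astrocytes with Aβ42 fibrils (26.1%), against 16.5% of all 11690 genes tested. None was lower by edgeR, where 20.4% of all genes were, and none was lower at an unadjusted p under 0.05 or by DESeq2. With Aβ40, 9 members were higher (19.6%), against 14.9% of all genes, and none was lower by the same 3 counts, against 18.4%. The 5 interferon-inducible genes made up 5 of these 12 and 9. Without them 7 of 41 members were higher with Aβ42 (17.1%) and 4 of 41 with Aβ40 (9.76%), shares close to and below those of all genes. At a fold of 5 or more, Psmb8, Psmb9 and Psmb10 were called with each fibril, where 3.03% of all genes were with Aβ42 and 2.82% with Aβ40. The median log2 fold change of the 41 other members was 0.17 with Aβ42 and 0.14 with Aβ40, and that of all genes was −0.0047 and 0.0017.

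The other members that rose in astrocytes belong to the rings, the inhibitor and the assembly chaperones. Psma6, an α ring subunit, was at 166.1, 208.8 and 180.7 CPM in control cells, at 309.1, 362.5 and 390.7 CPM with Aβ42 and at 360.2, 269.5 and 330.0 CPM with Aβ40. Psmf1, the PI31 protein that was named as an inhibitor of the proteasome, was at 167.5, 151.0 and 149.5 CPM in control cells, at 274.8, 263.8 and 246.8 CPM with Aβ42 and at 241.2, 292.4 and 268.8 CPM with Aβ40. In both genes every fibril-treated library exceeded every control. The edgeR log2 fold changes were 0.93 ± 0.15 and 0.79 ± 0.15 for Psma6 (adjusted p = 0.000541 and 0.00187) and 0.75 ± 0.12 and 0.78 ± 0.12 for Psmf1 (adjusted p = 0.000463 and 0.000386) with Aβ42 and Aβ40.

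Psma5, also of the α ring, was at 77.3, 64.8 and 106.7 CPM in control astrocytes, at 123.0, 127.5 and 139.8 CPM with Aβ42 and at 127.1, 113.1 and 135.1 CPM with Aβ40. Neither fibril group overlapped with control, and the edgeR log2 fold change was 0.64 ± 0.17 (adjusted p = 0.0141) and 0.58 ± 0.17 (adjusted p = 0.0243). The call of Psma5 was lost without control replicate 1 with each fibril, without Aβ42 replicate 3 and without Aβ40 replicate 1 or 3, and with Aβ40 also in the fit of the 2 compared groups alone. Psmb3, a non-catalytic β subunit, rose with both fibrils (0.56 and 0.48). Psmb2, Psmd5 and Psmd10 rose with Aβ42 (0.37, 0.42 and 0.55), and with Aβ40 they had values of 0.29, 0.36 and 0.43 that missed the threshold. Psmd5 and Psmd10 are chaperones that help to build the base of the regulatory particle. Psmd5 lost its call without control replicate 1, Aβ42 replicate 2 or Aβ42 replicate 3 (0.35 to 0.52 over the 6 fits that each left out a library), and also with library totals in place of TMM (0.37, adjusted p = 0.0624) and with the 2 compared groups alone (0.43, adjusted p = 0.0613).

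The genes of the regulatory particle did not pass in astrocytes. None of the 6 ATPase genes was called with either fibril by edgeR, and none was at an unadjusted p under 0.05 or by DESeq2. Of the 11 non-ATPase genes none was called by edgeR, 1 was higher at an unadjusted p under 0.05 with each fibril, and DESeq2 called 1 with Aβ42 and 0 with Aβ40. Psmd4, a ubiquitin receptor of the particle, had the highest value of them, 0.40 with Aβ42 and 0.36 with Aβ40. Psme3 and Psme4, the other activators, had values between −0.18 and 0.10.

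**Figure D2:**
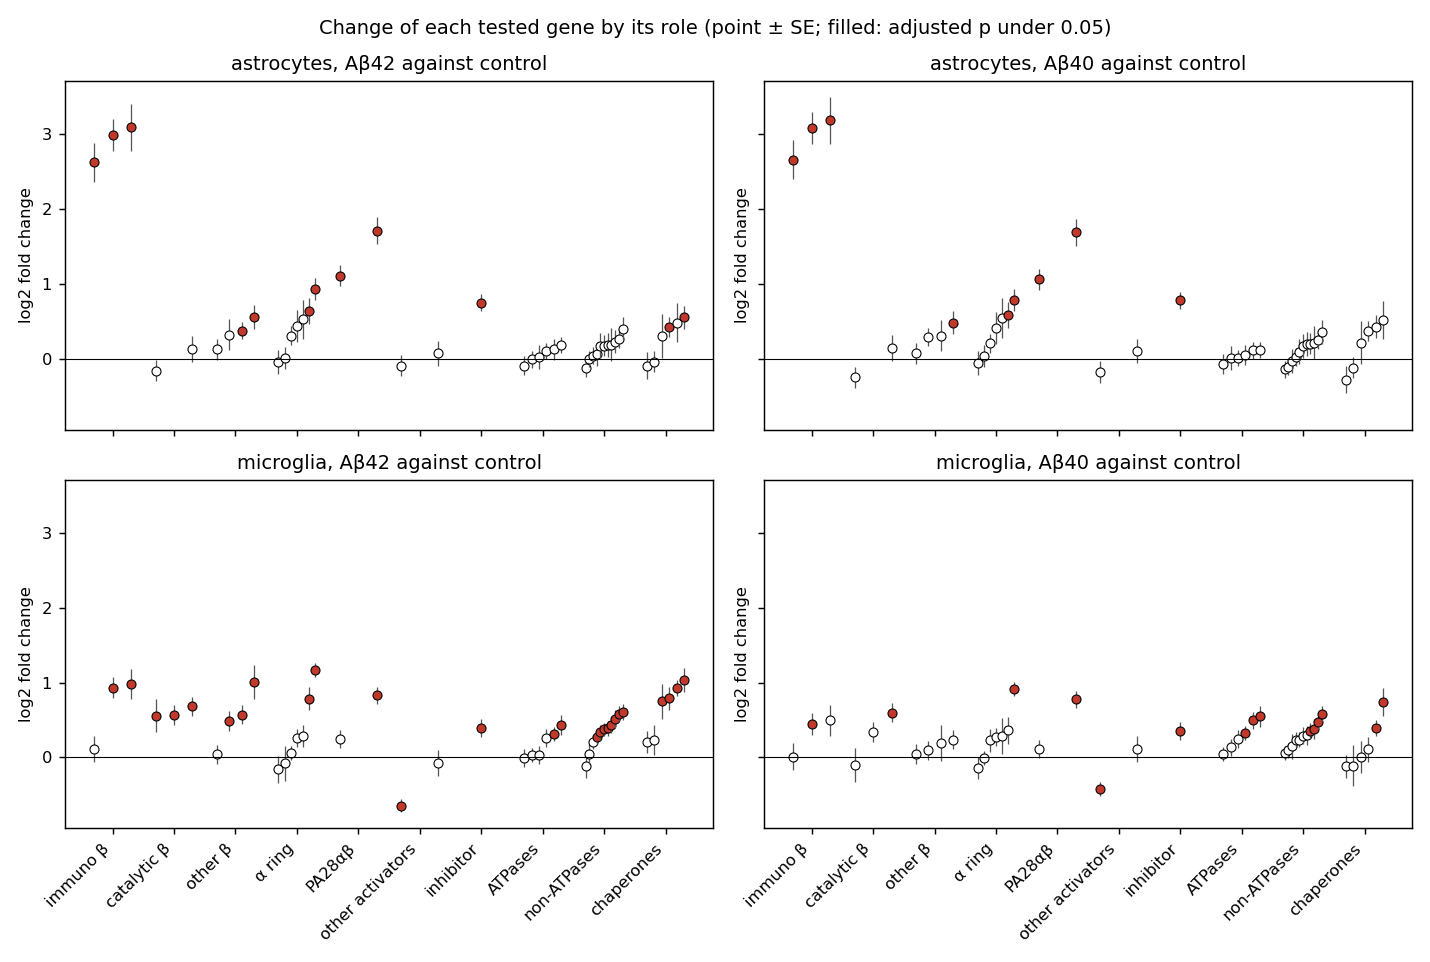
Log2 fold change against control (vertical axis, point with its SE) of each tested proteasome gene, grouped by its role, for the 4 comparisons of a fibril with control cells. Filled points passed an adjusted p of 0.05. In astrocytes the 3 immunosubunits stand at 2.63 to 3.19, above all other roles, and in microglia no gene exceeds 1.16. Psmb11 and Psmc3ip are not drawn.

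Leaving out astrocyte control replicate 2, which had the lowest Psmb8, Psmb9, Psmb10, Psme2 and Psmb5 of its group, the log2 fold changes with Aβ42 became 2.76 for Psmb8, 2.83 for Psmb9, 2.34 for Psmb10, 1.17 for Psme1 and 1.54 for Psme2. All 5 passed the test without it with both fibrils, and the members called higher came to 14 with Aβ42 and 13 with Aβ40, while the share of all genes called higher came to 22.1% and 19.6%. Psmb5 then turned to −0.05 with each fibril. The summed microglial markers in astrocyte libraries moved the other way from the immunosubunits, at 379 to 403 CPM in control, 63.0 to 90.8 CPM with Aβ42 and 40.5 to 53.4 CPM with Aβ40. All 11 of these markers are in the tables, and with Aβ42 2 of them, with Aβ40 1, were at 3 counts or fewer in all libraries. The sums of other lists moved the same way. Oligodendrocyte lineage markers went from 1696 to 2516 CPM in control to 1249 to 1342 CPM with Aβ42 and 1316 to 1338 CPM with Aβ40, and the astrocyte markers from 8574 to 10500 CPM to 5583 to 5819 CPM and 6190 to 6514 CPM. Of the 8 astrocyte markers 5 were called lower and 2 higher with Aβ42, against 20.4% and 16.5% of all genes. With Aβ40 5 were lower and 3 higher, against 18.4% and 14.9%. Neuronal markers were at 412 to 494 CPM in control, 222 to 233 CPM with Aβ42 and 316 to 326 CPM with Aβ40, and fibroblast markers at 168 to 189, 63.6 to 85.2 and 105 to 122 CPM. The part of these shifts in the proteasome values was not tested.

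In astrocytes no member passed the test between the fibrils. Of the 46 members, 0 were higher and 0 lower with Aβ42 than with Aβ40 by edgeR, with 0 at an unadjusted p under 0.05 and 0 by DESeq2, where 0.0599% of all genes were higher and 0.0257% lower. The log2 difference was −0.10 for Psmb8 (95% interval −0.62 to 0.43), −0.09 for Psmb9 (−0.47 to 0.28) and −0.03 for Psmb10 (−0.50 to 0.43). For Psme1 and Psme2 the intervals ran from −0.21 to 0.31 and from −0.32 to 0.36. The comparisons of each fibril with control share the same 3 control libraries, so their values are given side by side only.

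In microglia members of several roles were called, and none rose by as much as the immunosubunits of astrocytes. With Aβ42 fibrils 26 of the 46 tested members were higher (56.5%), against 27.1% of all 10837 genes, and 1 was lower, against 26.6%. With Aβ40 14 were higher (30.4%), against 19.6% of all genes, and 1 was lower, against 21.4%. No member reached a fold of 5 with either fibril, where 3.69% and 3.36% of all genes rose by that much with Aβ42 and Aβ40. The median log2 fold change of all tested members was 0.35 with Aβ42 and 0.24 with Aβ40, beside 0.0096 and 0.0053 for all genes. Without the 5 interferon-inducible genes 23 of 41 were higher with Aβ42 and 12 of 41 with Aβ40. With control and Aβ40 libraries alone in the fit, the Aβ40 comparison gave 26 members higher, against 26.1% of all genes.

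Psmb8 was at 35.8, 39.4 and 46.0 CPM in control microglia, at 61.1, 90.1 and 76.5 CPM with Aβ42 and at 54.7, 53.2 and 57.4 CPM with Aβ40. Every fibril-treated library lay above the controls. The log2 fold change was 0.93 ± 0.15 with Aβ42 (edgeR adjusted p = 0.000197) and 0.45 ± 0.15 with Aβ40 (adjusted p = 0.0343). The Aβ40 call was lost when any of control replicates 1 and 2 and Aβ40 replicates 1, 2 and 3 was left out, with values of 0.38 to 0.57 over the 6 fits, and with library totals (0.42, adjusted p = 0.0554).

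Psmb9 was at 51.1, 29.9 and 46.0 CPM in control microglia, at 59.1, 91.2 and 97.5 CPM with Aβ42 and at 62.9, 59.4 and 57.4 CPM with Aβ40. The groups did not overlap with control, though the lowest Aβ40 library and the highest control lay close. It rose with Aβ42, by 0.98 ± 0.20 (edgeR adjusted p = 0.00144), and its value with Aβ40, 0.49 ± 0.21, missed the threshold (adjusted p = 0.0811) and passed without control replicate 1 (0.68, adjusted p = 0.044) and with the 2 compared groups alone (0.49, adjusted p = 0.0128). With Aβ42 replicate 1 as the single Aβ42 library its value of 0.46 did not pass (adjusted p = 0.137). Psmb10 did not pass. Its libraries were at 94.95, 76.6 and 89.6 CPM in control, at 61.9, 112.2 and 103.2 CPM with Aβ42 and at 83.9, 90.7 and 89.1 CPM with Aβ40. Its Aβ42 libraries fell on both sides of the controls, with replicate 1 lowest, and the log2 value was 0.12 (95% interval −0.23 to 0.46) with Aβ42 and 0.01 (−0.34 to 0.36) with Aβ40.

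Of the PA28 genes, Psme2 alone passed in microglia. Its libraries were at 179.9, 155.7 and 193.5 CPM in control, at 280.8, 319.8 and 340.8 CPM with Aβ42 and at 320.3, 288.9 and 296.1 CPM with Aβ40, all treated libraries above the controls. The edgeR log2 fold change was 0.83 ± 0.11 (adjusted p = 6.85e-05) and 0.77 ± 0.11 (adjusted p = 0.000166). Psme1 was at 246.5, 202.0 and 272.3 CPM in control, at 273.2, 284.8 and 297.4 CPM with Aβ42 and at 277.9, 249.99 and 251.6 CPM with Aβ40. Its values of 0.25 (0.02 to 0.48) and 0.11 (−0.12 to 0.34) missed the threshold. The first did not reach an unadjusted p under 0.05 by edgeR either, though its normal interval, narrower than the test allows, leaves out 0. This Aβ42 value passed without control replicate 3 (0.36, adjusted p = 0.0371).

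Of the 3 constitutive catalytic subunits all were called higher in microglia with Aβ42 and Psmb7 alone with Aβ40, where 27.1% and 19.6% of all genes were. Psmb7 was at 164.8, 124.3 and 160.6 CPM in control microglia, at 252.0, 230.1 and 242.9 CPM with Aβ42 and at 218.9, 206.4 and 258.9 CPM with Aβ40. All treated libraries exceeded the controls, and the edgeR log2 fold change was 0.69 ± 0.13 (adjusted p = 0.000793) and 0.60 ± 0.13 (adjusted p = 0.00269). Psmb6 was at 113.1, 84.9 and 125.2 CPM in control, at 147.4, 162.0 and 168.5 CPM with Aβ42 and at 133.5, 138.3 and 136.8 CPM with Aβ40. It rose with Aβ42 (0.57 ± 0.13, adjusted p = 0.00349), and with Aβ40 the value of 0.34 missed the threshold (adjusted p = 0.0659) and passed without control replicate 3 (0.48, adjusted p = 0.0244) and with the 2 compared groups alone (0.34, adjusted p = 0.0206).

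Psmb5 was split between the Aβ42 libraries. It was at 73.7, 65.8 and 76.8 CPM in control microglia, at 61.5, 122.9 and 126.2 CPM in Aβ42 replicates 1, 2 and 3, and at 59.3, 80.9 and 59.7 CPM with Aβ40. Replicate 1 lay below every control while replicates 2 and 3 lay far above them. Its call with Aβ42 (0.56 ± 0.22, edgeR adjusted p = 0.0483) became 0.78 without replicate 1 (adjusted p = 6.71e-06) and was lost when any of the 3 controls, Aβ42 replicate 2 or Aβ42 replicate 3 was left out. It was also lost with library totals (0.55, adjusted p = 0.0645) and with the 2 compared groups alone (0.57, adjusted p = 0.0774). With Aβ40 the value was −0.11 and did not pass.

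Among the other members, Psma6 was at 179.8, 156.5 and 170.5 CPM in control microglia, at 369.0, 376.1 and 390.0 CPM with Aβ42 and at 322.7, 312.8 and 322.3 CPM with Aβ40. The libraries of each group lay close together and far from the controls. With 1.16 ± 0.09 (edgeR adjusted p = 6.88e-07) and 0.92 ± 0.09 (adjusted p = 6.92e-06) it had the largest rise of all 46 members in microglia with each fibril, above the immunosubunits, and it was called in astrocytes as well.

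Psmd5 was at 48.2, 54.0 and 50.6 CPM in control microglia, at 84.7, 102.5 and 101.2 CPM with Aβ42 and at 67.5, 66.4 and 66.6 CPM with Aβ40. The 3 groups did not overlap, and the edgeR log2 fold change was 0.93 ± 0.11 with Aβ42 (adjusted p = 1.54e-05) and 0.39 ± 0.11 with Aβ40 (adjusted p = 0.0131). Psmd10, the chaperone called gankyrin, rose by 1.04 and 0.74, and Psmg2 and Psmg4, which help to build the barrel, rose with Aβ42 (0.79 and 0.75). Psma5 was at 93.4, 79.1 and 96.0 CPM in control, 117.0, 165.8 and 176.3 CPM with Aβ42 and 116.4, 105.2 and 92.3 CPM with Aβ40. It passed with Aβ42 (0.79, adjusted p = 0.00102), though not with replicate 1 as the single Aβ42 library (0.39, adjusted p = 0.0558), and overlapped with control with Aβ40 (0.23, adjusted p = 0.269).

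Of the 11 non-ATPase genes of the regulatory particle 8 rose in microglia with Aβ42 (72.7%) and 4 with Aβ40 (36.4%), against 27.1% and 19.6% of all genes. Of the 6 ATPase genes 2 rose with Aβ42 (33.3%), a share close to that of all genes, and 3 with Aβ40. Psmd3, a scaffold of the lid, was at 182.0, 170.4 and 187.4 CPM in control, at 252.8, 267.4 and 286.1 CPM with Aβ42 and at 247.3, 274.6 and 288.8 CPM with Aβ40. Psmd12, also of the lid, was at 131.4, 140.9 and 138.6 CPM in control, at 175.3, 173.8 and 182.8 CPM with Aβ42 and at 180.5, 200.4 and 191.5 CPM with Aβ40. Both stood clear of the controls in every treated library, and their edgeR log2 fold changes were 0.58 ± 0.10 with each fibril for Psmd3 (adjusted p = 0.000446 and 0.000554) and 0.37 ± 0.09 and 0.48 ± 0.09 for Psmd12 (adjusted p = 0.00478 and 0.00129).

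Psmf1 was at 73.9, 57.1 and 75.7 CPM in control microglia, at 97.5, 86.7 and 89.4 CPM with Aβ42 and at 88.0, 88.7 and 87.2 CPM with Aβ40, which gave 0.39 ± 0.12 and 0.35 ± 0.12 (edgeR adjusted p = 0.0143 and 0.036). Neither fibril group overlapped with control. The Aβ40 call was lost without control replicate 2 or any of the Aβ40 libraries (0.25 to 0.44 over the 6 fits) and with no filter on low counts (0.34, adjusted p = 0.0527). Psme4, the PA200 activator of the nucleus, was the single member that fell. It was at 256.5, 269.6 and 250.8 CPM in control, at 176.9, 158.6 and 162.1 CPM with Aβ42 and at 190.9, 195.9 and 191.5 CPM with Aβ40. All treated libraries lay below the controls, with an edgeR log2 fold change of −0.65 ± 0.09 (adjusted p = 9.52e-05) and −0.43 ± 0.09 (adjusted p = 0.00281).

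Between the fibrils in microglia, 7 of the 46 members were higher with Aβ42 than with Aβ40 (15.2%), against 11.3% of all genes. None was lower by edgeR or DESeq2, with 3 at an unadjusted p under 0.05, where 9.01% of all genes were lower. The 7 were Psmb8, Psma5, Psmb1, Psmb4, Psmd5, Psmg2 and Psmg4, with log2 differences of 0.44 to 0.86. In Psmb4 the Aβ42 libraries were at 115.4, 251.5 and 266.7 CPM and the Aβ40 libraries at 124.6, 126.0 and 112.5 CPM, so that Aβ42 replicate 1 lay among the Aβ40 libraries. Without that library 18 members were higher and 10 lower, against 27.1% and 26.8% of all genes. With it as the single Aβ42 library, a fit chosen after seeing the data, the members had a median log2 difference of 0.065. That of all genes was −0.011. When any of the other 5 fibril-treated libraries was left out, 0 members were called higher, where 0.575% to 0.755% of all genes were.

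**Figure D3:**
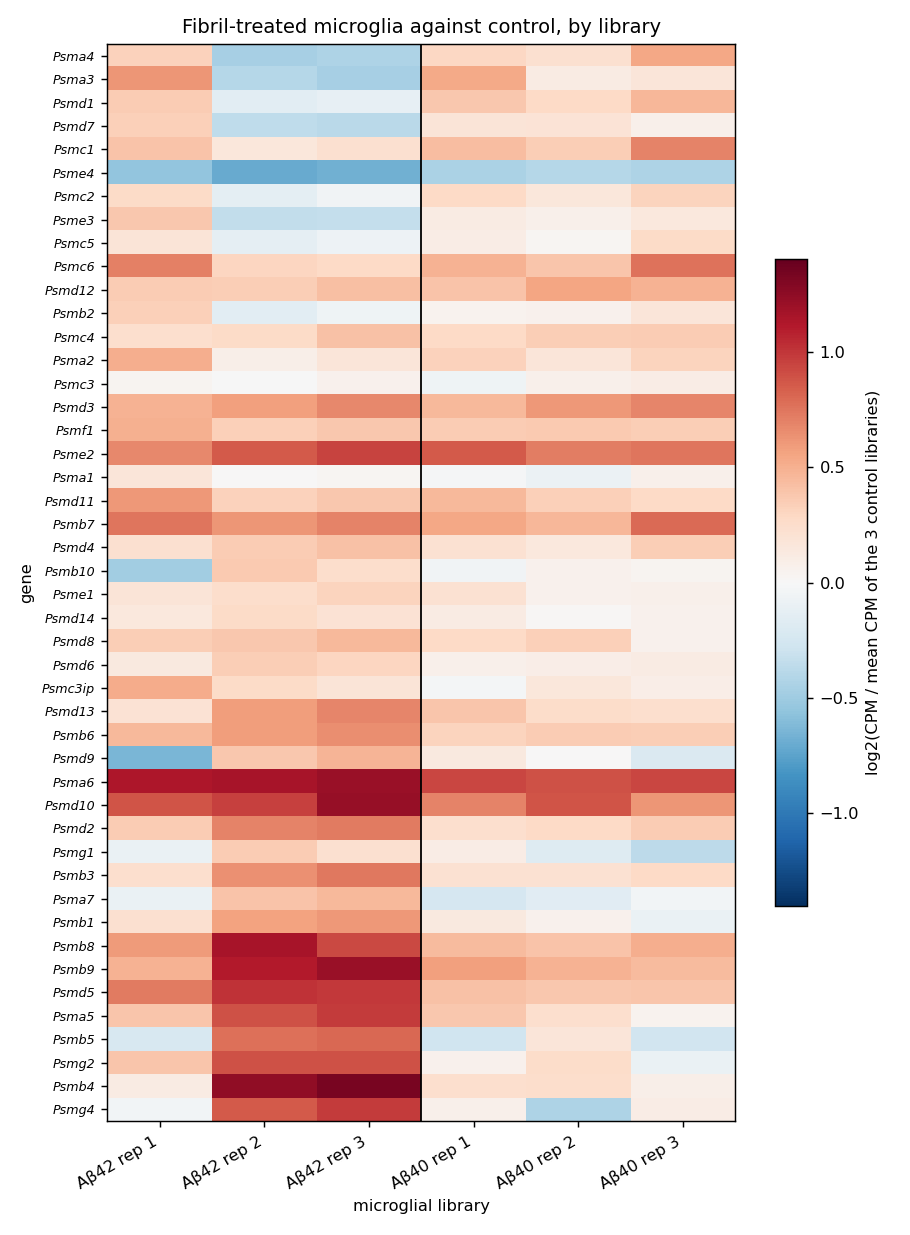
Log2 ratio of scaled counts (CPM) to the mean of the 3 control libraries (colour) for the 46 tested proteasome genes (rows, ordered by the difference between the fibrils) in the 6 fibril-treated microglial libraries (columns). For 38 of the 46 genes the first column, Aβ42 replicate 1, lies nearer to the mean of the 3 Aβ40 columns than to that of Aβ42 replicates 2 and 3. Psma6 is high and Psme4 low in all 6 columns.

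The comparison of Aβ42 with control in microglia also depends on this library. Without it 32 members were higher and 5 lower, against 34.6% and 35.7% of all genes, and Psmb10 then passed with 0.30 (adjusted p = 0.0078) and Psme1 with 0.27 (adjusted p = 0.0289). With it as the single Aβ42 library 21 were higher and 3 lower, against 17.1% and 18.1% of all genes, and Psmb10 was lower by 0.49 (adjusted p = 0.0221). The summed microglial markers fell from 9029 to 10230 CPM in control to 3173 to 4394 CPM with Aβ42 and 3802 to 4498 CPM with Aβ40, while the astrocyte markers were at 239 to 268, 227 to 265 and 219 to 244 CPM. Fibroblast markers were at 55.3 to 67.7 CPM in control, 134 to 162 CPM with Aβ42 and 119 to 125 CPM with Aβ40, neuronal markers at 228 to 244, 336 to 374 and 315 to 329 CPM, and endothelial markers at 161 to 173, 35.0 to 59.1 and 79.1 to 102 CPM. Their part in the proteasome values was not tested.

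The exchange of subunits was followed as the ratio of the counts of an immunosubunit to those of its constitutive partner within a library, which does not depend on the scaling of libraries and is not corrected for gene length. In astrocytes Psmb8 to Psmb5 was 0.0654, 0.0411 and 0.0919 in control, 0.603, 0.608 and 0.533 with Aβ42 and 0.579, 0.672 and 0.608 with Aβ40. All treated libraries were higher, by 9.26-fold with Aβ42 and 9.86-fold with Aβ40 (exact permutation test, two-sided p = 0.1, the smallest that 3 against 3 libraries allow). For Psmb10 to Psmb7 the control ratios were 0.188, 0.110 and 0.286, those with Aβ42 1.45, 1.38 and 1.22 and those with Aβ40 1.46, 1.41 and 1.53. These ratios rose by 7.46-fold and 8.12-fold (exact permutation p = 0.1), with no overlap with control. Psmb9 to Psmb6 was not formed in astrocytes because Psmb6 was listed at 0 to 2 counts.

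In control microglia Psmb8 to Psmb5 was 0.486, 0.598 and 0.599, close to the ratios that astrocytes reached with fibrils. It was 0.994, 0.733 and 0.607 with Aβ42 and 0.923, 0.657 and 0.962 with Aβ40, all above control, 1.36-fold and 1.5-fold (exact permutation p = 0.1). Psmb10 to Psmb7 moved the other way, from 0.576, 0.617 and 0.558 in control to 0.246, 0.488 and 0.425 with Aβ42 and 0.383, 0.439 and 0.344 with Aβ40. All treated libraries were lower, at 0.636 and 0.664 times control (exact permutation p = 0.1), where Psmb7 rose and Psmb10 did not pass. Unlike Psmb8 to Psmb5, this ratio in control microglia lay well below the 1.22 to 1.53 of fibril-treated astrocytes. In such comparisons the cell type and its annotation cannot be told apart. Psmb9 to Psmb6 overlapped between control and either fibril, at 1.31 and 1.13 times control (exact permutation p = 0.2 and 0.3). Without Aβ42 replicate 1 the log2 change of Psmb10 to Psmb7 with Aβ42 was −0.36 in place of −0.65, that of Psmb8 to Psmb5 0.26 in place of 0.45 and that of Psmb9 to Psmb6 0.56 in place of 0.39.

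**Figure D4:**
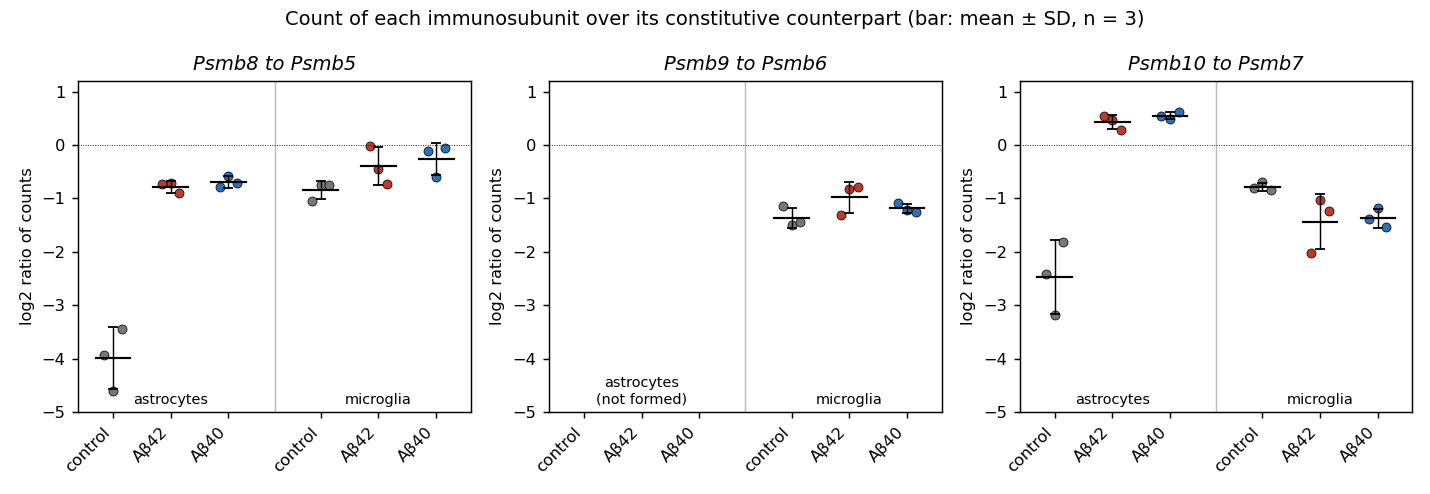
Log2 ratio of the counts of each immunosubunit to those of its constitutive partner (vertical axis), with each library as a point and the mean and SD of the 3 libraries of a group. Fibril-treated astrocytes lie above their controls for Psmb8 to Psmb5 and Psmb10 to Psmb7, and fibril-treated microglia lie below theirs for Psmb10 to Psmb7. The dotted line marks equal counts.

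Before any treatment the cell types already differed. All 5 interferon-inducible genes were higher in control microglia than in control astrocytes, by 2.37 ± 0.26 for Psmb8, 1.13 ± 0.23 for Psmb9, 1.73 ± 0.24 for Psmb10, 0.54 ± 0.13 for Psme1 and 1.49 ± 0.16 for Psme2 on the log2 scale (edgeR adjusted p from 8.24e-08 to 0.00152). The groups of libraries did not overlap for Psmb8, where microglia were at 35.8 to 46.0 CPM and astrocytes at 3.59 to 12.9 CPM in the fits of each cell type. Lower in microglia were Psmf1 (−0.92 ± 0.12), Psmd5 (−0.78 ± 0.13) and Psmb5 (−0.52 ± 0.22, adjusted p = 0.0433), which lost its call without astrocyte control replicate 1 or 3 or any microglial control. In all, 23 of 47 members were higher, or 22 of 46 without Psmb6, against 34.2% of all 11581 genes, and 8 were lower, against 34.5%. Among the 8 were Psmb11, which was under the detection limit in every microglial library and passed the filter through astrocytes, and Psmc3ip, not a proteasome subunit. Without astrocyte control replicate 2 the counts were 21 and 9, against 36.2% and 36.4% of all genes, and the differences were 2.05 for Psmb8, 0.96 for Psmb9, 1.45 for Psmb10, 0.59 for Psme1 and 1.31 for Psme2, all called.

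These counts turn on the scaling. With library totals in place of TMM the median log2 difference of all genes moved to −0.28, the share of higher among all called genes from 49.8% to 37.4%, and 10 members were higher, against 26.1% of all genes. The tables of the cell types list different symbols, so the cell type and the annotation used to count it cannot be told apart, as the rows of Psmb6 show. Psmb8, Psmb9, Psmb10 and Psme2 stayed higher in microglia under every alternative run, and Psme1 lost its call with library totals (0.26, adjusted p = 0.0824).

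Responses were compared between the cell types by an interaction term in the fit of all 18 libraries. For Aβ42 4 of 47 members (8.51%) had a higher response in microglia, against 19.3% of all genes, and 6 a lower one (12.8%), against 17.9%. For Aβ40 4 were higher (8.51%), against 16.0%, and 7 lower (14.9%), against 16.5%. Psmb6, Psmb11 and Psmc3ip were among the 47 and were not called with either fibril. Without astrocyte control replicate 2 the counts were 9 and 6 for Aβ42, against 24% and 22.5% of all genes, and 4 and 7 for Aβ40, against 17.1% and 18.2%. Without microglia Aβ42 replicate 1 they were 8 and 9 for Aβ42, against 22.1% and 20.1%. All 5 interferon-inducible genes were among the lower ones with each fibril, with or without these libraries. The microglial response of Psmb8 was lower than the astrocyte one by a log2 difference of −2.16 ± 0.34 with Aβ42 (edgeR adjusted p = 5.76e-05) and −2.75 ± 0.34 with Aβ40 (adjusted p = 5.11e-06), and that of Psmb10 by −2.52 ± 0.33 and −2.66 ± 0.33. The differences were −2.02 and −2.61 for Psmb9, −0.87 and −0.97 for Psme1 and −0.88 and −0.93 for Psme2.

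Psmb7 went the other way, with a response that was higher in microglia by 0.84 ± 0.19 with Aβ42 (edgeR adjusted p = 0.00181) and 0.83 ± 0.19 with Aβ40 (adjusted p = 0.00229). Psme4, which fell in microglia, was at 274.6, 441.6 and 333.1 CPM in control astrocytes, at 341.2, 366.0 and 394.7 CPM with Aβ42 and at 411.1, 354.8 and 358.8 CPM with Aβ40. The astrocyte groups overlapped, and the responses differed by −0.72 ± 0.19 and −0.54 ± 0.19 (edgeR adjusted p = 0.00591 and 0.037). The Aβ42 difference passed under all 17 alternatives run, and the Aβ40 one was lost under 15 of them. Fibril-treated astrocytes ended above fibril-treated microglia in Psmb9, Psmb10 and Psme1 and below them in Psme2, by the values per library above, which were scaled within each cell type, while for Psmb8 the Aβ42 libraries of the cell types overlapped.

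**Figure D5:**
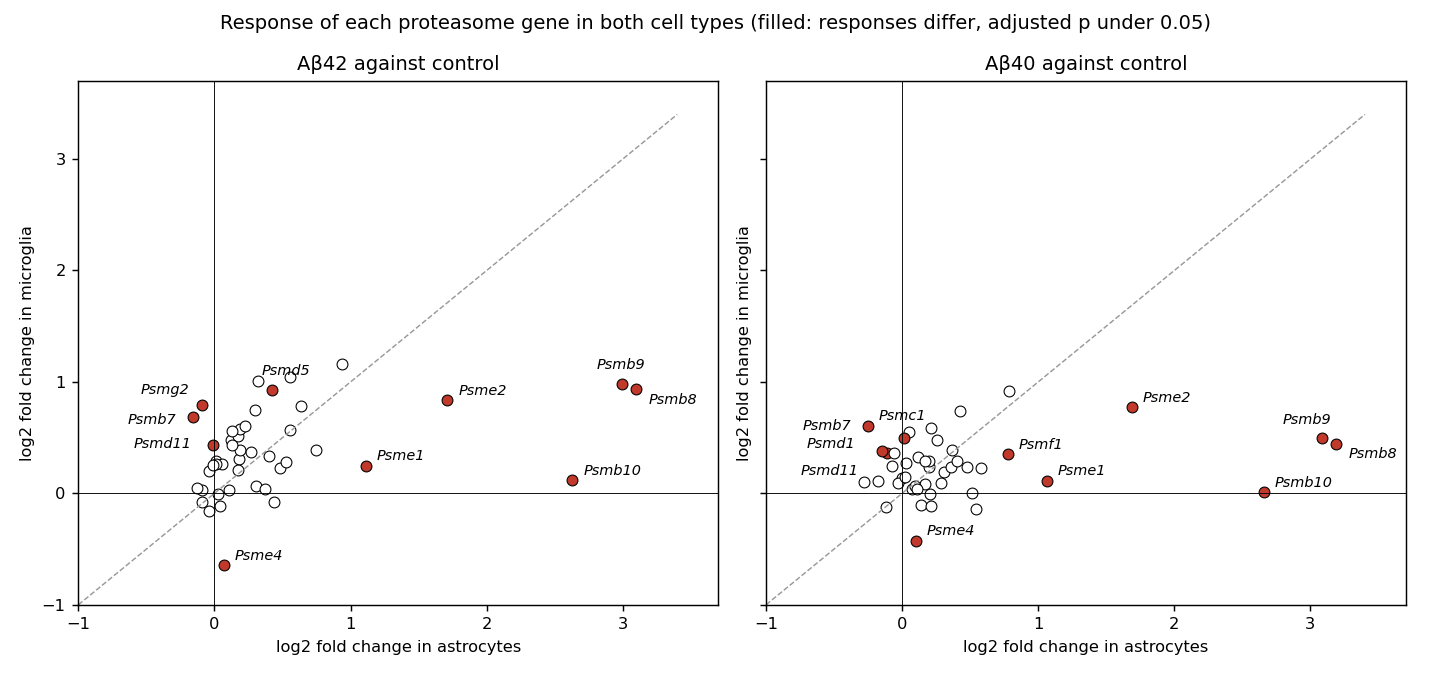
Log2 fold change against control in astrocytes (horizontal axis) and in microglia (vertical axis) for each proteasome gene tested in both, with Aβ42 on the left and Aβ40 on the right. Filled and named points are genes whose responses differed between the cell types at an adjusted p under 0.05, and the dashed line marks equal responses. Psmb8, Psmb9 and Psmb10 lie at 2.63 to 3.19 in astrocytes and at 0.01 to 0.98 in microglia.

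Genes around the proteasome were read from lists chosen for their role. Of 11 tested regulators of proteasome and immunoproteasome genes, 9 rose in astrocytes with Aβ42 and 8 with Aβ40, against 16.5% and 14.9% of all genes, and none fell by edgeR or DESeq2 or at an unadjusted p under 0.05. Irf1, a transcription factor that binds interferon response elements, was at 45.3, 40.4 and 54.2 CPM in control astrocytes, at 259.9, 249.7 and 239.0 CPM with Aβ42 and at 257.4, 270.0 and 284.8 CPM with Aβ40. Neither fibril group overlapped with control, and the log2 fold changes were 2.41 and 2.53.

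In microglia 3 of the 11 regulators rose and 6 fell with each fibril, where 27.1% of all genes rose and 26.6% fell with Aβ42 and 19.6% and 21.4% with Aβ40. Irf1 was at 72.4 to 81.4 CPM in control, 63.5 to 87.0 CPM with Aβ42 and 74.6 to 83.1 CPM with Aβ40. Its log2 values of 0.02 and 0.03 missed the threshold, and the interaction was −2.39 and −2.51. Irf8, a regulator known from microglia, fell by 4.26 with Aβ42 and by 3.71 with Aβ40. Nfkb1, a subunit of NF-κB, rose in both cell types (2.23 and 2.14 in astrocytes, 0.61 and 0.59 in microglia). Ifngr1, a chain of the interferon-γ receptor, rose by 1.27 and 1.26 in astrocytes and had values of −1.08 and −1.57 in microglia, both past the threshold. Nfe2l2, the factor of the antioxidant element, rose by 1.23 and 1.01 in astrocytes and dropped by 0.56 and 0.48 in microglia. No row carried the symbols Nlrc5, Nfe2l1 and Ifnar2 in either cell type, so these were not analysed. Over all 11 the response was lower in microglia for 10 with each fibril, and of the MHC class I genes below for 5 of 8 with Aβ42 and 4 of 8 with Aβ40, where 17.9% and 16.5% of all genes had a lower one.

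Of 8 genes that load peptides onto MHC class I, 5 rose in astrocytes with each fibril, against 16.5% of all genes with Aβ42 and 14.9% with Aβ40. In microglia 3 rose and 1 fell with Aβ42, against 27.1% and 26.6% of all genes, and 4 rose with Aβ40, against 19.6%. None fell in astrocytes by edgeR or DESeq2 or at an unadjusted p under 0.05, and with Aβ40 the same 3 counts were 0 in microglia. Tap1, a chain of the peptide transporter encoded beside Psmb9, was at 54.5, 29.7 and 53.0 CPM in control astrocytes, at 329.9, 321.8 and 236.4 CPM with Aβ42 and at 261.1, 310.3 and 318.7 CPM with Aβ40. Its log2 fold change was 2.69 with each fibril in astrocytes, and 1.51 and 0.95 in microglia. Tapbp, which holds the transporter to the class I molecule, rose by 2.29 and 2.37 in astrocytes and by 2.17 and 1.2 in microglia, and Tap2 by 1.962 and 2.48 in astrocytes and by 0.95 in microglia with Aβ40.

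Of 17 tested ubiquitin and proteasome partners, 2 rose and 3 fell in astrocytes with Aβ42, against 16.5% and 20.4% of all genes. With Aβ40 1 rose and 2 fell, against 14.9% and 18.4%. In microglia 4 rose and 1 fell with Aβ42, against 27.1% and 26.6%, and 1 rose and 1 fell with Aβ40, against 19.6% and 21.4%. Zfand2a, a stress-induced protein that binds the proteasome, rose by 1.4 and 0.75 in microglia and by 0.74 in astrocytes with Aβ42. Zfand5, another proteasome-binding zinc finger protein, rose by 0.98 and 0.67 in astrocytes and by 0.62 in microglia with Aβ42. In astrocytes Uchl5, a deubiquitinase that binds the proteasome, dropped by 0.80 and 0.76. Adrm1, a ubiquitin receptor, rose in microglia with Aβ42 (0.45) and did not pass in astrocytes (−0.23). Pomp, the chaperone of barrel assembly, stood at 0.67 to 4.17 CPM in all libraries, near the detection limit, so its rise in microglia with Aβ42 (1.18 ± 0.39, edgeR adjusted p = 0.0229) rests on few counts.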

How the data were processed

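RNA of 9 astrocyte and 9 microglial libraries was sequenced from paired ends after poly(A) selection with a stranded kit. The authors deposited raw counts of reads per gene, 1 table per library, with the reads off genes listed apart. The submitters' processing notes name the build rn5 and the tools STAR, Salmon and DESeq2, and the strand setting and annotation release were not given in the sources used here. Reads off genes (21.7% to 34.2%) were left out.

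The deposited counts were scaled by TMM and filtered by filterByExpr in edgeR 4.0.16 (R 4.3.3). The 9 libraries of a cell type were fitted together by glmQLFit without covariates, on 11690 genes in astrocytes and 10837 in microglia. The cell types were compared, and the interaction of cell type and fibril was tested, in a fit of all 18 libraries on 11581 of the 16704 shared symbols. Calls needed a Benjamini-Hochberg adjusted p under 0.05 over all genes tested. The SE is the size of the log2 fold change over the square root of its F value, and 95% intervals are normal ones built from it. With so few libraries they are narrower than the quasi-likelihood test allows, so an interval that leaves out 0 need not pass it. Ratios of subunits were compared by two-sided exact permutation tests over 3 against 3 libraries. The scripts were tested on simulated data. Detection limits and intervals cover counting error and the spread between libraries only.

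Same-numbered libraries of different groups deviated together in 2 of 9 pairs in astrocytes and 1 of 9 in microglia (correlation over 0.1), so replicate numbers were not taken as pairs. In astrocytes differently numbered libraries also deviated together in part, with correlations of −0.569 to 0.619, against −0.641 to 0.436 for same-numbered ones. In microglia these ran from −0.254 to 0.262 and from −0.221 to 0.264. Among the astrocyte libraries, control replicate 2, Aβ42 replicate 3 and Aβ40 replicate 1 deviated together, with correlations of 0.565 to 0.619. Whether these libraries share a processing step was not tested, and the fits hold no term for it. Alternatives were DESeq2 size factors, library totals, no filter, DESeq2 1.42.0, the 2 compared groups alone, the replicate block and leaving out each replicate. Added after seeing the data were microglia Aβ42 replicate 1 as the single Aβ42 library and the mean of 13 constitutive core genes as denominator of the ratios.

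The members and gene lists were chosen with earlier results of these data known. Values in every library are given for Psmb8, Psmb9, Psmb10, Psme1, Psme2, their partners Psmb5, Psmb6 and Psmb7, and Psma3l, and in each comparison of a fibril with control for the 3 other called members with the smallest p. Other members named were singled out after their values were seen. Of the lists, the regulators Irf1 and Nfe2l2, Tap1, Tap2, Pomp and Adrm1, and the 2 genes with the smallest p per list and cell type, were named. Lists covered 19 ubiquitin and proteasome partners, 14 regulators, 8 genes of MHC class I peptide supply and markers of 7 cell types. Further items of these lists and of the motif search are not reported here.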

Additional observations from a re-analysis of the deposited data

Results flagged for a closer look

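The proteasome genes below were marked because their response to a fibril differed between microglia and astrocytes in the test of the interaction over 18 libraries (edgeR quasi-likelihood test, adjusted p under 0.05), given as the microglial minus the astrocyte log2 fold change. With Aβ42 the value was −2.52 for Psmb10, −2.16 for Psmb8, −2.02 for Psmb9, −0.884 for Psme2, −0.869 for Psme1 and −0.725 for Psme4, and it was 0.497 for Psmd5 and 0.839 for Psmb7. With Aβ40 it was −2.75 for Psmb8, −2.66 for Psmb10, −2.61 for Psmb9, −0.966 for Psme1, −0.932 for Psme2, −0.544 for Psme4 and −0.445 for Psmf1, and 0.834 for Psmb7. Psmb10 was higher than control in every fibril-treated astrocyte library. In microglia its Aβ40 libraries lay within the control range, and its Aβ42 libraries lay outside that range, on both sides of it. The values of Psmb8, Psmb9, Psmb10, Psme1, Psme2 and Psmb7 passed under every alternative run with both fibrils. Of 17 alternatives, that of Psmd5 with Aβ42 was lost under 9, and those of Psme4 and Psmf1 with Aβ40 under 15 and 12.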

How the results depend on the processing

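Most results kept their direction and side of the threshold. Between Aβ42 and Aβ40 in microglia 7 members were called higher, against 11.3% of all genes. They came to 2 under the replicate block, against 3.7% of all genes, and to 0 with the 2 compared groups alone, against 0.566%. When each replicate was left out they came to 0 to 18, where 0.575% to 27.1% of all genes were called higher. Those lower came to 1 with library totals, against 9.99%. They came to 0 to 10 when each replicate was left out, the 10 against 26.8%. In microglia with Aβ40 the members higher came to 26 with the 2 groups alone, against 26.1% of all genes. They came to 9 to 14 when each replicate was left out, the 9 against 15.5%. With Aβ42 those lower came to 3 with the single library and 1 to 5. In astrocytes with Aβ40 those lower came to 0 to 1, the 1 against 19.8% of all genes. Between the control cell types the members higher came to 10 with library totals, where 3018 genes in all were higher. They came to 13 under the replicate block, where 3366 genes in all were higher, in place of 3966. Higher responses in microglia came to 2 to 9 for Aβ42 when each replicate was left out, where 1888 to 2809 genes in all had one. For Aβ40 they came to 2 under the replicate block, where 1611 genes in all had one. They came to 2 to 5 when each replicate was left out, where 1543 to 1993 genes did. The replicate block moved no other count of members by over 1.5 times. Of the single members refitted under it, it took below the threshold Psmd5 with Aβ42 in astrocytes (0.43, adjusted p = 0.058) and Psmb5 with Aβ42 in microglia (0.49, adjusted p = 0.0749), Psmb8 and Psma5 between the fibrils in microglia (0.46 and 0.54), Psmb5 between the control cell types (−0.48), and the differences in response of Psmd5 with Aβ42 (0.48) and of Psme4 and Psmf1 with Aβ40 (−0.56 and −0.43). Over the 13 core genes as denominator, the microglial Aβ40 change was 0.23 for Psmb8 and −0.21 for Psmb10. With Aβ42 it was 0.49 for Psmb8 and −0.37 for Psmb10, and the Psmb10 ratios with Aβ42 then overlapped with control. The cause of these changes was not tested.

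Values that turned sign were small and, save 1, not past the threshold. When each replicate was left out in astrocytes, Psmb7 with Aβ42 ran from −0.26 to 0.016, Psmb5 from −0.053 to 0.25 with Aβ42 and from −0.048 to 0.25 with Aβ40. In microglia Psmb10 with Aβ40 was −0.013 with library totals, −0.0029 with no filter and −0.053 to 0.10 when each replicate was left out. With Aβ42 it was −0.036 to 0.30 when each replicate was left out and −0.49 with replicate 1 as the single Aβ42 library, where Psmb5 was −0.23. Psmb7 between the control cell types was −0.11 with library totals. At 2271834 counts in the shallowest library, genes near 1.38 CPM are at the detection limit.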

Other observations

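The proteasome genes took a larger share of all counts on genes with fibrils in both cell types. In astrocytes the 49 genes held 0.630% to 0.642% of the counts in control libraries, 0.757% to 0.788% with Aβ42 and 0.742% to 0.781% with Aβ40. In microglia they held 0.619% to 0.659% in control, 0.767% to 0.824% with Aβ42 and 0.761% to 0.779% with Aβ40. Treated libraries lay above control libraries in each cell type, and this share is a description that was not tested. It includes the 5 interferon-inducible genes, whose part was not separated. Of the 41 other tested members, 17.1% were called higher in astrocytes with Aβ42 and 9.76% with Aβ40, against 16.5% and 14.9% of all genes. In microglia 56.1% and 29.3% were, against 27.1% and 19.6%.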
